A study of Drosophila melanogaster with 4 samples.

Results

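Chromosome 4 is the small dot chromosome of Drosophila melanogaster. The Ensembl annotation of assembly release 6, which has the coordinates of dm6, places 80 protein-coding genes on it, out of 13945 on the 6 chromosome arms, and all 80 are described here. A gene was counted as having a peak when a peak overlapped its body or came within 1000 bp of one of its transcription start sites (TSSs). The remaining 13865 protein-coding genes, on arms 2L, 2R, 3L, 3R and X, served as the comparison.

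HDAC3 occupancy was mapped by CUT&Tag, in which an antibody bound to the protein directs a transposase that inserts sequencing adaptors into the neighbouring DNA, in pools of whole embryos 2 to 4 h after egg laying. Embryos of the w1118 laboratory strain were profiled once with a rat and once with a rabbit HDAC3 antibody in a first round. In a second round the rat antibody was used on w1118 embryos and on embryos with an HDAC3 shRNA. In the study's knockdown, the hairpin is expressed in the mother from an α-tubulin-Gal4VP16 driver, so it depletes the maternal supply of HDAC3, whereas w1118 carries neither hairpin nor driver. Each combination is 1 library and 1 peak list, so there is no replicate spread and no test between libraries. Intervals below are 95% exact binomial intervals for shares and Newcombe intervals for differences, and they cover counting error over genes or peaks only.

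The rat list of the first round held 6258 peaks, the rabbit list 3645, the second-round w1118 list 1142 and the HDAC3 shRNA list 102, of which 6129, 3448, 1038 and 18 lay on the arms. Read numbers are not part of the lists, so depth is unknown, and the fold enrichment of a peak, its signal relative to the local background of the same library, ranks peaks within a list only. The lists hold no RNA measure, so the knockdown could not be checked in them.

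HDAC3 is a histone deacetylase that works with corepressors of the NCoR/SMRT family, SMRTER in the fly. The dot chromosome is known for a mixture of active genes and heterochromatin: its arm is rich in transposon remnants and is coated by HP1 and histone H3 lysine methylation, and the protein POF binds its genes. Many of its genes are nevertheless expressed, among them regulators of embryonic patterning and eye development.

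The chromosome 4 genes are longer, more repeat-rich and poorer in GC than those of the other arms. Their median length was 10090 bp (range 687 to 52075 bp) compared with a median of 2156 bp elsewhere, and they had a mean of 1.77 annotated TSSs compared with 1.40. Repeat-masked sequence made up a median of 26.3% of a gene with 1000 bp on either side, compared with 11.4%, and the median GC content was 34.3% compared with 43.9%. The chromosome covers 1.01% of the length of the arms, and its genes are 0.574% of the genes.

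The rabbit antibody gave a peak at a larger share of chromosome 4 genes than of other genes, by more than the counting error. Before gene length was taken into account, the rat shares lay within the counting error. In the rabbit list, 45 of the 80 genes had a peak (56.2%, interval 44.7 to 67.3%), compared with 27.9% of the genes of the other arms, a difference of 28.4 percentage points (interval 17.4 to 38.7). Arm X had the highest share among the other arms, 33.2%, below the lower bound for chromosome 4. In the rat list, 29 genes had a peak (36.2%, interval 25.8 to 47.8%), compared with 32.7% elsewhere, and the difference of 3.59 points had an interval from -6.13 to 14.6. Of the 80 genes, 22 (27.5%, interval 18.1 to 38.6%) had a rat peak and a rabbit peak that overlapped each other, compared with 20.2% elsewhere (difference 7.26 points, interval -1.35 to 17.9). In the second-round w1118 list, 6 genes had a peak (7.50%, interval 2.80 to 15.6%), compared with 7.38% elsewhere. With peaks counted only within 1000 bp of a TSS, and the rest of the gene body left out, the rabbit antibody marked 37 genes (46.2%) compared with 25.5% elsewhere, and the rat antibody 23 genes (28.8%) compared with 28.7%.

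**Figure D1:**
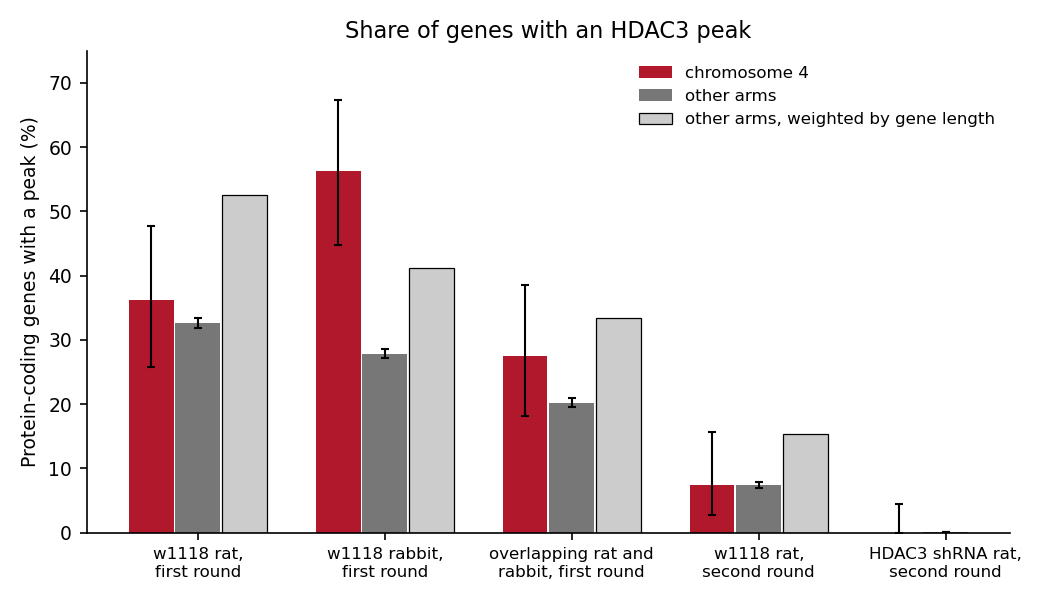
Percent of protein-coding genes with a peak in the gene body or within 1000 bp of a TSS, for the 80 genes of chromosome 4 (red), the 13865 genes of the other arms (dark grey) and the other arms weighted to the gene lengths of chromosome 4 (light grey, not drawn for the HDAC3 shRNA list). Error bars are 95% exact binomial intervals. The rabbit share of chromosome 4 (56.2%) lies above both grey bars, and the rat share (36.2%) lies between them.

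Long genes were more often marked on the other arms, from 22.6% in the shortest to 68.4% in the longest class in the rat list. The shares were therefore also compared within 5 classes of gene length holding 16 chromosome 4 genes each. Class bounds are given as the lengths of the chromosome 4 genes. For the other arms the end classes were open, so they took in all genes down to 168 bp and up to 1965857 bp. When the other arms were weighted to these classes, their share was 52.6% for the rat and 41.3% for the rabbit antibody. Against these, the rat difference turned negative, at -16.3 points, and the rabbit difference fell from 28.4 to 15.0 points. The weighted rat share elsewhere lay above the chromosome 4 interval of 25.8 to 47.8%, and the weighted rabbit share below that of 44.7 to 67.3%. For the overlapping peaks of both antibodies the weighted share elsewhere was 33.3%, above the 27.5% of chromosome 4, and for the second-round w1118 list it was 15.4%, compared with 7.50%. Within 1000 bp of a TSS only, a comparison chosen after seeing the data, the weighted shares elsewhere were 43.4% for rat and 35.4% for rabbit, compared with 28.8% and 46.2% of chromosome 4 genes. The rat difference was positive without and negative with the weighting. With the weighting at TSSs, the rat share elsewhere, 43.4%, lay above the chromosome 4 interval of 19.18 to 39.95%. The rabbit difference was positive in each form, but with the weighting at TSSs the share elsewhere, 35.4%, lay inside the chromosome 4 interval of 35.0 to 57.8%.

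Within the classes, the rat shares of chromosome 4 ran from 25.0% to 68.8%. In each of the 3 classes up to 11568 bp, 4 of 16 genes had a rat peak (25.0%, interval 7.27 to 52.4%). Among other-arm genes of 8368 to 11568 bp, 60.0% had one, above this interval, and of those of 4161 to 8195 bp 47.9%, within it. In the longest class, 19523 to 52075 bp on chromosome 4, 11 of 16 chromosome 4 genes had a rat peak (68.8%), compared with 68.4% elsewhere. A rabbit peak was present at 14 of the 16 (87.5%), compared with 51.1%. The genes elsewhere in this class include all longer ones. The 2 chromosome 4 genes of this class without a rabbit peak were Mitf and Syt7, the latter with a rat peak. The interval of the rabbit share in this class, 61.7 to 98.4%, lies above the share of the other arms. In the 4 shorter classes the rabbit share elsewhere lay inside the chromosome 4 interval, and among genes of 4161 to 8195 bp the rabbit antibody marked 5 of 16 chromosome 4 genes (31.2%), fewer than the 41.1% elsewhere.

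**Figure D2:**
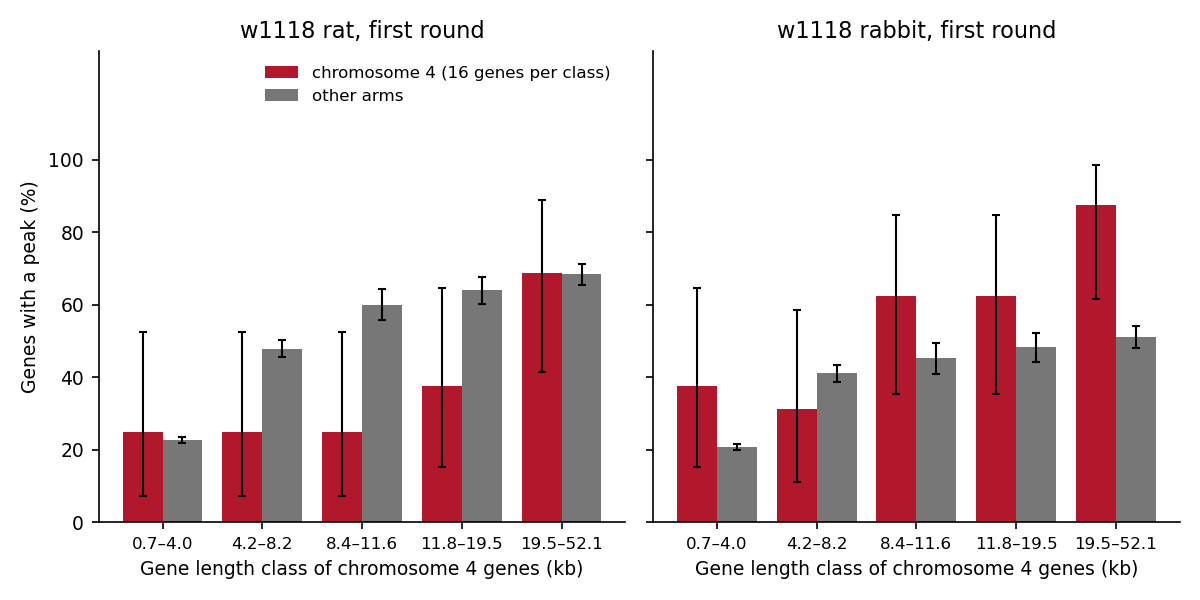
Percent of genes with a first-round w1118 peak in 5 gene-length classes set by the chromosome 4 genes, for chromosome 4 (red, 16 genes per class) and the other arms (grey), rat antibody on the left and rabbit antibody on the right. Error bars are 95% exact binomial intervals. In the longest class the rat shares are 68.8% and 68.4%, while the rabbit shares are 87.5% and 51.1%. For the other arms the shortest and longest classes are open-ended.

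The difference between the antibodies was seen in peaks as well as in genes. Both first-round lists held 56 peaks on chromosome 4, or 41.5 peaks per Mb, although the rabbit list is the shorter one. On the other arms the density was 45.8 rat peaks and 25.6 rabbit peaks per Mb. Chromosome 4 therefore held 0.914% of the rat peaks on the arms (interval 0.691 to 1.19%) and 1.62% of the rabbit peaks (interval 1.23 to 2.10%). Of the 56 rabbit peaks, 24 overlapped a rat peak (42.9%, interval 29.7 to 56.8%), compared with 71.4% of the rabbit peaks elsewhere. In the other direction the shares were close, with 23 of 56 rat peaks overlapped by a rabbit peak (41.1%) compared with 40.2%.

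By gene, 25 of the 80 had a peak with both antibodies, 20 with the rabbit antibody only, 4 with the rat antibody only and 31 with neither. Of the 45 rabbit-marked genes, 55.6% (interval 40.0 to 70.4%) also had a rat peak, compared with 75.3% of the rabbit-marked genes elsewhere. In the other direction the share by gene was higher than elsewhere. Of the 29 rat-marked genes, 86.2% (interval 68.3 to 96.1%) also had a rabbit peak, compared with 64.3%. The 20 genes marked by the rabbit antibody only included MED26 (a Mediator subunit), CaMKII (a calcium-dependent kinase), the plexin receptors PlexA and PlexB, and the TGF-β family ligand myo, and 16 of the 20 carried the peak at a TSS. Their strongest rabbit peaks had a median fold enrichment of 3.48 (range 3.30 to 5.58), lower than the 4.16 of the 25 genes with peaks of both antibodies. The 4 genes with a rat peak only were Ank (an ankyrin), Syt7 (a synaptotagmin), Rad23 (a nucleotide excision repair factor) and fd102C (a forkhead transcription factor). In 3 of the 25 genes with both, lgs, PMCA and toy, the rat and rabbit peaks did not overlap each other.

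With stronger peaks alone, the rabbit shares on chromosome 4 and elsewhere both fell, from 56.2% and 27.9%. The rabbit excess was then smaller in percentage points. Of the 20 genes with a rabbit peak only, 5 had one with a −log10 q of 3 or more. With peaks of this strength alone, the rabbit antibody marked 22.5% of chromosome 4 genes and 11.3% of other genes, a difference of 11.2 points, and the rat antibody 21.2% and 18.1%. More of the chromosome 4 peaks lay mostly in repeats: 7 of the 56 rabbit peaks (interval 5.18 to 24.1%) and 4 of the 56 rat peaks (interval 1.98 to 17.3%) were over 50% repeat-masked, compared with 2.21% and 1.73% on the other arms. Weighted to the repeat content of chromosome 4 genes, the other arms had a rabbit share of 30.2% and a rat share of 36.2%. The part that repeats and the mapping of reads to several places had in the antibody difference was not tested.

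Most marked genes carried a peak at a TSS, at shares within counting error of those elsewhere. A gene with several peaks was placed by the first of these to apply: covering a TSS, within 1000 bp, exon, intron. In this order, exons beyond a TSS took a larger share of rat-marked genes than elsewhere. A rat peak covered a TSS in 11 of the 29 rat-marked genes and came within 1000 bp in a further 12. In 6 it lay further away in an exon (20.7%, interval 7.99 to 39.7%), compared with 6.62% elsewhere for exons. Among these, mGluR also had a nearer rat peak in an intron, 5162 bp from its TSS compared with 6814 bp, so the exon count depends on the order. At a TSS were thus 79.3% of the rat-marked genes (interval 60.3 to 92.0%), compared with 88.0% of marked genes on the other arms. Among the 45 rabbit-marked genes the peak covered a TSS in 26, came within 1000 bp in 11, and lay beyond in an exon in 5 and in an intron in 3, so that 82.2% had it at a TSS (interval 68.0 to 92.0%), compared with 91.3%. The intervals of both shares at a TSS include the value of the other arms. All 6 genes of the second-round w1118 list had the peak at a TSS.

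Counted by peaks on chromosome 4, the rat antibody had more peaks deep inside genes than the rabbit antibody. Peaks of the other arms, whose genes are shorter (median 2156 bp compared with 10090 bp), were not counted by distance. The counts therefore have no share elsewhere beside them. Of 45 rat peaks at chromosome 4 genes, 21 lay within 1000 bp of a TSS and 24 beyond, at a median distance of 6630 bp. Of 49 rabbit peaks, 35 lay within 1000 bp and 14 beyond. The peaks beyond were weaker at the median, with fold enrichments of 3.53 compared with 4.35 at a TSS for rat peaks and 3.57 compared with 3.81 for rabbit peaks. The genes with 3 or more rat peaks beyond 1000 bp of a TSS were bt, which encodes the giant muscle protein projectin and held 4 rat peaks in coding exons with fold enrichments from 3.24 to 3.95, the zinc-finger gene dati, with 3 of 4 rat peaks at 3.84 to 4.31, and pan, the TCF transcription factor of the Wingless pathway, with 3 of 4 at 3.30 to 3.60.

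**Figure D3:**
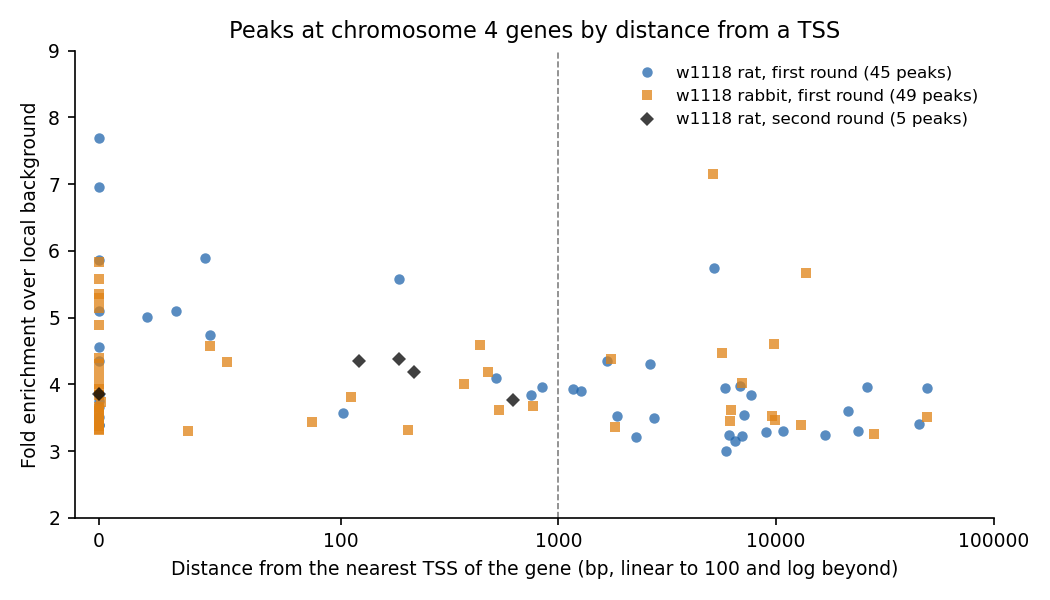
Fold enrichment over local background (vertical axis) of each peak at a chromosome 4 gene against its distance from the nearest TSS of that gene in bp (horizontal axis, linear to 100 and logarithmic beyond), with 45 first-round rat peaks (circles), 49 first-round rabbit peaks (squares) and 5 second-round rat peaks (diamonds). The dashed line marks 1000 bp. The strongest rat peak covers a TSS, whereas the strongest rabbit peak, 7.15, lies in the mGluR intron.

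Among rat peaks at chromosome 4 genes, the strongest lay at a signalling ligand gene and the next at a transcription factor gene. At chromosome 4 genes the median fold enrichment was 3.84 for rat peaks (range 3.01 to 7.69) and 3.73 for rabbit peaks (range 3.26 to 7.15), compared with medians of 3.71 and 3.86 at genes of the other arms. The first was mav, maverick, a ligand of the TGF-β family encoded on the minus strand, whose single TSS at 626031 was covered by a rat peak at chr4:625956-626557 with a fold enrichment of 7.69 and by a rabbit peak at chr4:625808-626267 with 5.35. Sox102F, an HMG-box transcription factor gene of 33958 bp on the minus strand, followed with a rat peak of 6.96 and a rabbit peak of 5.84 over its TSS at 834393. A further Sox102F TSS at 807347 was covered by a rat peak of 5.87, with rabbit and second-round rat peaks of 4.33 and 3.85 beside or over it. Rat peaks of ey (5.90), mGluR (5.74) and the pair Tdg and Pur-alpha (5.58), described below, were also stronger than that of onecut. The gene onecut, which encodes a homeodomain protein with a cut domain, had a rat peak of 5.10 and a rabbit peak of 3.39 over its TSS at 607649.

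The 160 bases before these TSSs are shown because, among TSSs covered by a peak of each antibody, these had the 3 strongest rat peaks. They were read 5′ to 3′ along the strand of the gene from the RefSeq copy of assembly release 6 (dm6), at chr4:626032-626191, chr4:834394-834553 and chr4:607650-607809, all on the minus strand. No letters are in capitals because none of the 5 motifs searched, described further on, is present.
mav: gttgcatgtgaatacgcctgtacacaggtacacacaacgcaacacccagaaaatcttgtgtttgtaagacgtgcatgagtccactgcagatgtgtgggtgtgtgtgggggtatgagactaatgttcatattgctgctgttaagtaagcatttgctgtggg
Sox102F: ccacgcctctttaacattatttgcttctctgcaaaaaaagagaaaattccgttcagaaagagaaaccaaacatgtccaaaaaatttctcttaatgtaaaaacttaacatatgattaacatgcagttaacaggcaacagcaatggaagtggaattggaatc
onecut: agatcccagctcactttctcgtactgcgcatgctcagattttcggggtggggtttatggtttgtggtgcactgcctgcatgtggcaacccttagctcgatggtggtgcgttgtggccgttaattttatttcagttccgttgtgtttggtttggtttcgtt
The GC content of these stretches was 46.2% for mav, 33.8% for Sox102F and 49.4% for onecut.

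The Pax6 genes ey and toy, which direct eye development, differed in their peaks. At ey (plus strand, 23485 bp, 3 TSSs) a rat peak of 5.90 ended 44 bp before the internal TSS at 704651, a rabbit peak of 5.15 covered this TSS, and the second-round rat list had a peak of 4.35 there. At toy the rat peak of 5.10 lay 32 bp before the TSS at 989725, whereas the only rabbit peak, 4.60, lay 9809 bp downstream in an intron and was 56.4% repeat-masked. The forkhead gene fd102C had a rat peak of 5.02 that ended 20 bp before its TSS and no rabbit peak.

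Among the transcription factors, zfh2, a zinc-finger homeodomain gene of 39065 bp, had wide peaks over its TSS at 501810, with fold enrichments of 3.75 (rat) and 3.84 (rabbit). The second-round peak of 3.77 lay 617 bp downstream in the first intron and overlapped both wider peaks. The sequences shared by all 3 w1118 lists are shown for ey (whole) and zfh2 (the central 300 bases), with 160 bases before the TSS of zfh2 and before a TSS of gw, because these hold the motifs searched. All lie on the plus strand except gw, at chr4:704282-704530, chr4:502451-502750, chr4:501650-501809 and, for gw on the minus strand, chr4:660609-660768. Capitals mark GAGAG or its reverse complement CTCTC, the GAGA factor motif, and CGATA or its reverse complement TATCG, the BEAF-32 motif.
ey: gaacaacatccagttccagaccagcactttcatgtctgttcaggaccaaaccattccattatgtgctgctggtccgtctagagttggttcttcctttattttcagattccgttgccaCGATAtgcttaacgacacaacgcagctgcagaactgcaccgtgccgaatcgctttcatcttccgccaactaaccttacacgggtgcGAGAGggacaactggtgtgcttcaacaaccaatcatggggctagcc
zfh2 intron: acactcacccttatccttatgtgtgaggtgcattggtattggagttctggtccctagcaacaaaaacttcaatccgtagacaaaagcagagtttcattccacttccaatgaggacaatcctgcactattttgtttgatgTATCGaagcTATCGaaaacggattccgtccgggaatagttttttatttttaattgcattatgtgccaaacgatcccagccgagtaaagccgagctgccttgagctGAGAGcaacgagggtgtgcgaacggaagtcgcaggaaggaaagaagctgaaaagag
zfh2: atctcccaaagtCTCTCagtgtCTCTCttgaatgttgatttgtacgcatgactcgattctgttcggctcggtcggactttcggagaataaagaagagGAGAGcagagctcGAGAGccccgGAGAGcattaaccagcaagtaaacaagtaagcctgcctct
gw: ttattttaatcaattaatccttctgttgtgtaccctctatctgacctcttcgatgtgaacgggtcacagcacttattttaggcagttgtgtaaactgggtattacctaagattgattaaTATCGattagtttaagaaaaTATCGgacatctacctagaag
The zfh2 promoter stretch held 5 GAGAG matches and no CGATA, the zfh2 intron stretch held 2 CGATA matches and 1 GAGAG, and the ey stretch held 1 of each. The gw stretch held 2 CGATA matches, and gw, which encodes the GW182 protein of microRNA silencing, had a rat peak of 3.51 and a rabbit peak of 3.67 over its TSSs.

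Tdg and Pur-alpha, which point away from each other with TSSs at 557854 and 558016, shared their peaks. Tdg encodes a thymine DNA glycosylase and Pur-alpha a single-strand nucleic acid binding protein. The rat peak at chr4:557103-557668 had a fold enrichment of 5.58, the rabbit peak 4.89 and the second-round peak 4.37, and only the rabbit peak reached both TSSs. The peak was assigned to both genes, which cannot be told apart by position alone. The same holds for Zyx (zyxin) and apolpp (apolipophorin), with a rat peak of 3.40 and a rabbit peak of 3.63. Taf3, a TFIID subunit gene, and CG33941 were also assigned the same rat peak of 4.74 and rabbit peak of 4.58. Both of these lay nearer Taf3, 46 bp downstream of its TSS and 715 bp upstream of that of CG33941. A further rabbit peak of 4.18 lay in CG33941. Of the peaks at chromosome 4 genes, 4 of 45 rat and 9 of 49 rabbit peaks were assigned to more than 1 gene. These are smaller shares than at genes of the other arms, where 1471 of 5054 rat and 1292 of 3009 rabbit peaks were.

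The strongest rabbit peak lay in an intron. It was at chr4:941938-942256 in mGluR, a metabotropic glutamate receptor gene, 5119 bp downstream of the TSS, with a fold enrichment of 7.15, and the rat peak at the same place had 5.74. The presynaptic gene unc-13 held 5 rabbit peaks, the strongest an intronic peak of 5.67 with no rat counterpart, and 2 rat peaks of 4.36 and 3.83. The rat peaks of unc-13 were 98.0% and 86.1% repeat-masked, and one of the 2 Syt7 peaks 98.8%. The promoter shared by Dyrk3, a dual-specificity kinase gene, and Cadps, which acts in vesicle priming, had a rabbit peak of 5.58 with both TSSs inside it and no rat peak. A rabbit peak of 5.29 covered a TSS of MED26, also without a rat peak. Dyrk3, Cadps and MED26 were picked out after their values were seen.

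**Figure D4:**
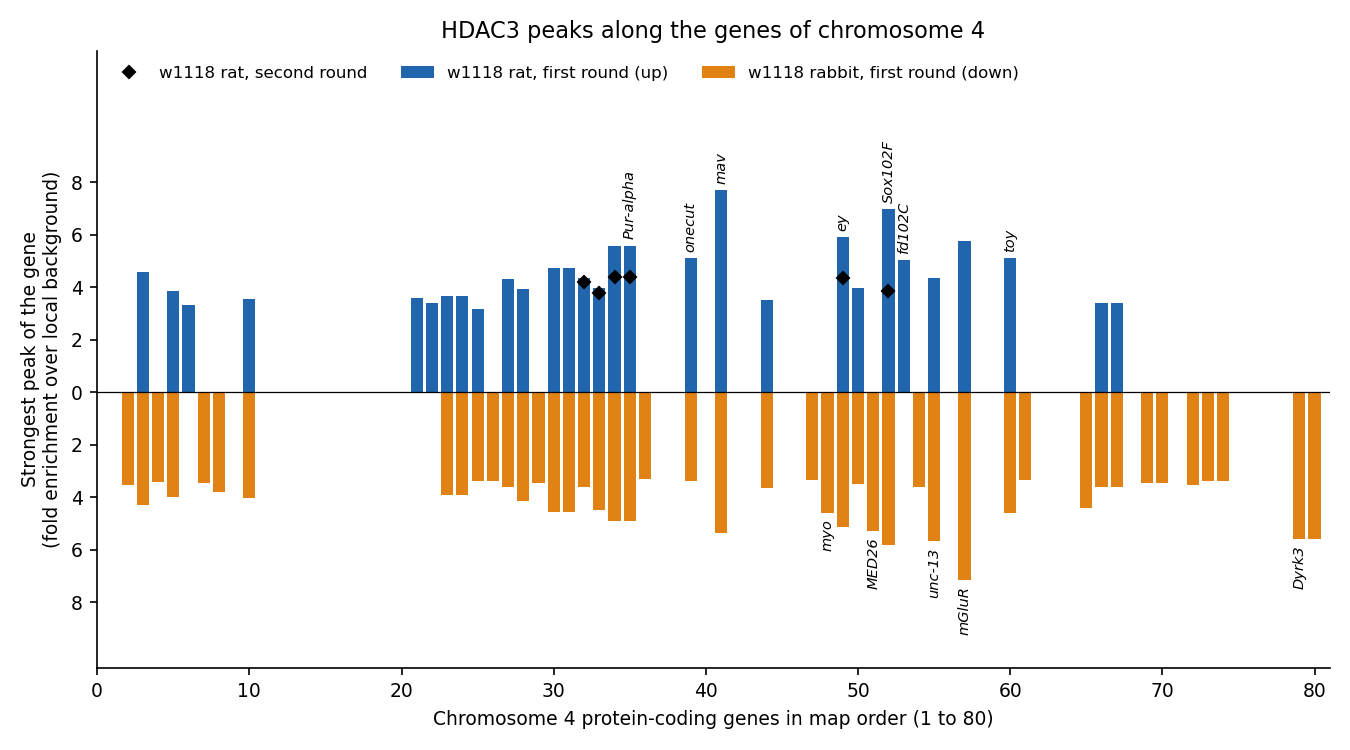
Fold enrichment of the strongest peak of each of the 80 chromosome 4 genes, in map order along the horizontal axis, with the first-round rat list drawn upward, the first-round rabbit list downward and the second-round w1118 rat list as diamonds. Genes with no bar have no peak. The highest rat bar is mav at 7.69 and the highest rabbit bar is mGluR at 7.15, and genes 11 to 20 have no bar in either direction.

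Grouped by function, the transcription factors and cofactors had a rat peak at 62.5%, beside 36.2% of all 80 genes. Of 16 such genes, 10 had a rat peak, 11 a rabbit peak (68.8%, beside 56.2% of all 80), 9 both and 4 a second-round peak. In all, 12 had some peak, beside 49 of all 80 genes. Their rat-marked members had a median strongest fold enrichment of 5.06, and all 10 had a rat peak at a TSS. Sox102F, ey, Pur-alpha and onecut headed the group. The 4 without a peak were pho, which recruits Polycomb complexes, Mitf, NfI and fuss, a Ski/Sno family gene. The group is made up of long genes, with a median length of 17174 bp, and of the other-arm genes of 11787 to 19509 bp a rat peak was present at 64.0%.

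Of 19 signalling genes, 4 had a rat peak (21.1%, beside 36.2% of all 80 genes), and each of these also had a rabbit peak. A rabbit peak was present at 10 (52.6%, beside 56.2%). The 4 with a rat peak were mav at 7.69, Asator (a kinase gene) at 4.35, lgs (the Wingless pathway cofactor legless) at 3.94 and Rnf11 at 3.66. The 9 without a peak were Arl4, Crk, RhoGAP102A, Ephrin, Eph, Slip1, Actbeta, Arf4 and PIP4K. The receptor Eph and its ligand Ephrin were thus both without a peak, and of the 3 TGF-β family ligands on the chromosome, mav had peaks of both antibodies, myo a rabbit peak of 4.59 and Actbeta none.

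Of 14 synapse, channel, transporter and adhesion genes, 6 had a rat peak (42.9%) and 8 a rabbit peak (57.1%). Of all 80 genes, 36.2% had a rat peak, 56.2% a rabbit peak and 61.2% a peak of either antibody. The strongest rat peaks of the synapse group were those of mGluR, unc-13, Zip102B at 3.66 and Syt7 at 3.57. JYalpha, dpr7, Gat and Ekar were among its genes with no peak. Of the 12 gene expression and housekeeping genes, 4 had a rat peak (33.3%: Tdg, Taf3, gw at 3.51 and Rad23 at 3.39) and 7 a rabbit peak (58.3%). Without a peak were eIF4G1, 4E-T, Mpv17 and ATPsynbeta. All 4 cytoskeleton and muscle genes, of a median length of 18275 bp, had a peak, beside 61.2% of all 80 genes. These were bt at 3.95, Zyx at 3.40 and Ank at 3.31 in the rat list, and Kif3C in the rabbit list only. Of the 15 genes outside these groups, 2 (13.3%, CG33941 and CG33978) had a rat peak and 6 a rabbit peak (40.0%). These groups are small and differ in median gene length, from 6896 bp (gene expression and housekeeping) to 18275 bp (cytoskeleton and muscle). The counts are therefore given as a description.

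**Figure D5:**
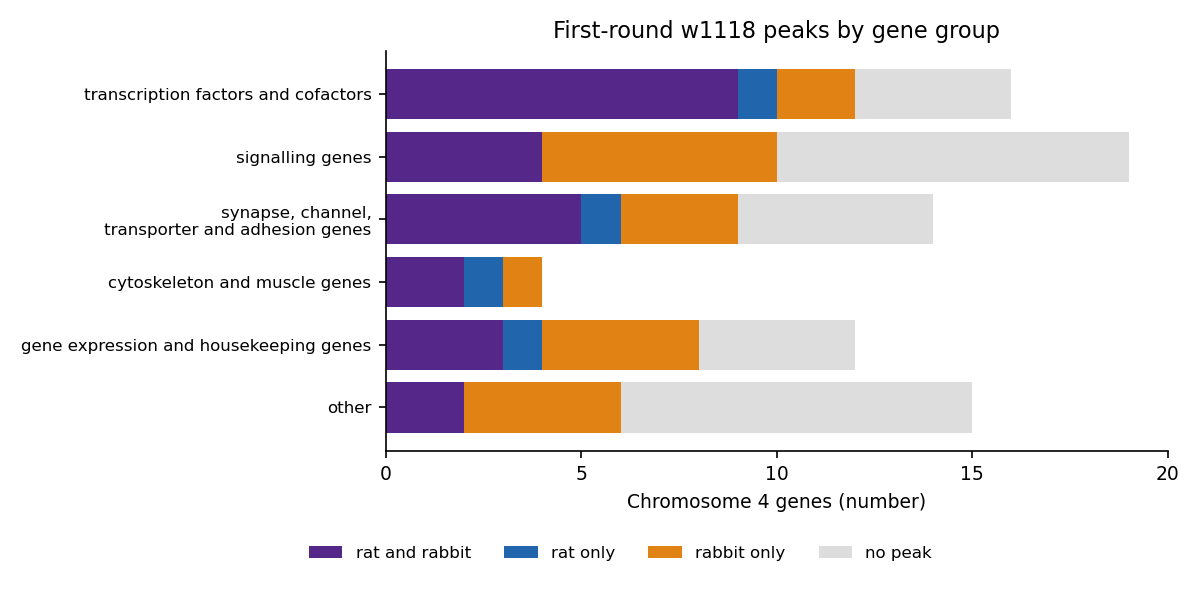
Number of chromosome 4 genes (horizontal axis) in 6 functional groups (vertical axis), divided into those with peaks of the rat and rabbit antibodies, of the rat antibody only, of the rabbit antibody only and of neither in the first round. Transcription factors and cofactors have 9 of 16 genes with peaks of both antibodies, and signalling genes 4 of 19, beside 25 of all 80 genes.

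Genes without a peak in any list lay partly in runs along the map. The longest run held 10 consecutive genes from Arl4 to NfI, over 99.0 kb from 177348 to 276369, with no rat peak and 2 rabbit peaks, neither of which was close enough to a gene to be counted. Runs of 4 genes from pho to Mitf (52.0 kb) and of 3 genes from Mpv17 to ATPsynbeta held no first-round peak. Between 1000001 and 1200000 there were 17 genes but 1 rat peak, shared by Zyx and apolpp, and 6 rabbit peaks that marked 9 genes. The longest genes without a peak were Mitf (25616 bp), fuss (16149 bp), eIF4G1 (15419 bp), CG1674 (15174 bp) and CG31999 (12740 bp). The median repeat-masked share was 26.5% in the 31 genes with no peak, 28.3% in the 20 with a rabbit peak only and 23.4% in the 25 with both, and the median lengths were 6851, 11310 and 16465 bp.

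A few assignments rested on the width of the TSS window. Hcf was counted through a rabbit peak 964 bp from its TSS, and Rnf11 through peaks 888 bp away with both antibodies. Just outside were a rabbit peak 1002 bp from the Ephrin TSS, a rabbit peak 1009 bp from that of CG31998 and a rat peak 1042 bp from that of PlexB.

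The second-round w1118 list was contained in the first-round rat list on this chromosome. Its 8 peaks on chromosome 4 all overlapped first-round rat peaks, compared with 91.8% of its peaks on the other arms. A rabbit peak overlapped 6 of the 8, compared with 73.8% on the other arms. At genes, 5 of these peaks marked Asator, zfh2, Tdg, Pur-alpha, ey and Sox102F, the 6 genes found in all 3 w1118 lists. They are 6 of 6 genes of the second-round list and 6 of 29 of the first-round rat list, which holds many more peaks. The second-round fold enrichments ran from 3.77 (zfh2) to 4.37 (Tdg and Pur-alpha). At Asator the rat peaks had fold enrichments of 4.35 in the first round and 4.19 in the second, and the rabbit peak beside this TSS had 3.32. The strongest first-round gene, mav, was not in the second-round list.

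The HDAC3 shRNA list had no peak on chromosome 4. None of the 80 genes was marked, which allows a share of up to 3.75% when 0 is read as at most 3 genes, compared with 0.108% of the genes elsewhere. None of the 8 second-round w1118 peaks on the chromosome was overlapped by a shRNA peak, compared with 15 of 1030 on the other arms. With 18 peaks on all arms together, the shRNA list is too short for chromosome 4 to stand apart, and knockdown and library cannot be told apart with 1 library of each genotype.

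Promoters of chromosome 4 genes held the motifs searched at shares close to those elsewhere. A promoter here is 250 bases before to 50 after the most upstream TSS of each gene. Internal TSSs, such as those with peaks at ey and ci, were not used for these shares. On both strands, with overlaps allowed, 5 motifs were searched: TATCGATA for DREF, GGTCACACT for M1BP, CGATA for BEAF-32, which is also contained in the DREF motif, CAGGTAG for Zelda and GAGAG for the GAGA factor. CGATA was present in 51.2% of the 80 promoters and in 47.3% of the others, GAGAG in 23.8% and 29.8%, TATCGATA in 8.75% and 9.36%, GGTCACACT in 4 of the 80 and in 6.05%, and CAGGTAG in none of the 80 and in 1.65%. The promoters had a median GC content of 33.5% compared with 38.0%.

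In the 300 bases around the midpoint of each peak, the motif shares were also within counting error of those elsewhere where an interval is given. The window reaches beyond narrower peaks, and a motif anywhere in it is counted for the peak. Median peak widths were 299.5 bp (rat) and 381 bp (rabbit) on chromosome 4, compared with 397 and 404 bp elsewhere. GAGAG was present in 25 of 56 rat peaks on chromosome 4 (44.6%), compared with 46.4% elsewhere, and in 18 of 56 rabbit peaks (32.1%, interval 20.3 to 46.0%), compared with 45.0%. In the 32 rabbit peaks without a rat counterpart the share was 25.0% (interval 11.5 to 43.4%), compared with 36.2% for such peaks elsewhere. CGATA was present in 46.4% of the rabbit peaks (interval 33.0 to 60.3%), compared with 36.9%, and in 33.9% of the rat peaks, compared with 32.4%. TATCGATA was in none of the 56 rat peaks, compared with 1.8% elsewhere, and in 3 of 56 rabbit peaks (interval 1.12 to 14.9%), compared with 4.16%. All 3 were among the 32 rabbit peaks without a rat counterpart (interval 1.98 to 25.0%), compared with 5.26% of such peaks elsewhere. The median GC content of the peaks was 44.6% with the rat and 41.1% with the rabbit antibody, compared with 48.0% and 46.9% elsewhere. A match is a match of letters only.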

How the data were processed

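CUT&Tag reads were, according to the study's methods, trimmed with Trim Galore!, mapped to dm6 with Bowtie2 and turned into 1 peak list per library with MACS2. Versions, peak calling options, any control library and the handling of multi-mapping reads are not given in the sources used here. For each peak the authors deposited the fold enrichment, a ratio of signal to local background, and −log10 of its p-value and q-value. The deposited score, 10 times −log10 q truncated to an integer, was set aside. All w1118 lists started at a −log10 q of 1.60.

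Genes and TSSs came from Ensembl release 115, and sequence and repeat masking from RefSeq's copy of the assembly. Both have dm6 coordinates. Overlap needed 1 bp. Python 3.11.15, numpy 2.4.6, pandas 2.3.3, scipy 1.17.1 and matplotlib 3.10.9 were used, and the overlap functions were tested on simulated intervals. The other arms were weighted to 5 classes of chromosome 4 genes by length or by repeat content. No test was made, since no group had more than 1 library per round.

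The genes and lists were chosen with earlier results of these data known, and the symbols in the functional groups were completed after 8 peak positions had been seen. Genes named by rule were those in all 3 w1118 lists, the 10 with the strongest rat peaks, the 5 longest without a peak and up to 4 per group with the strongest rat peaks, with each group's genes without a peak. Others were named after their values were seen. Some genes are counted but not reported by name here.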

Additional observations from a re-analysis of the deposited data

How the results depend on the processing

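The rabbit excess on chromosome 4, 28.4 percentage points, stayed positive in all 12 alternatives (10.9 to 30.8). It was 11.2 points with −log10 q of at least 3 (22.5% compared with 11.3%). With as many of the strongest peaks as the second-round w1118 list holds, it was 12.2 points (21.2% compared with 9.06%). In both cases the shares themselves were lower than the 56.2% and 27.9% of all peaks. It was 15.0 points with the other arms weighted by gene length. With the weighting and only peaks within 1000 bp of a TSS, an alternative chosen after seeing the data, it was 10.9 points. In the last of these the share elsewhere, 35.4%, lay inside the chromosome 4 interval (35.0 to 57.8%), so the excess was no longer beyond counting error. The rat difference, 3.59 points, was -16.3 with the length weighting and -14.6 with the weighting at TSSs. In both cases the weighted rat share elsewhere, 52.6% and 43.4%, lay above the chromosome 4 interval. The second-round w1118 difference, 0.122 points, was -7.91 with the length weighting, -4.72 with the weighting by repeat content and -4.50 with the length weighting at TSSs. For the HDAC3 shRNA list, at -0.108 points, these were -0.265 and -0.251 with the length and repeat weighting. Within its interval, the rat difference also turned to -0.217 with a window of 3000 bp, and the second-round difference to -0.611 with the gene body only and -0.147 with −log10 q of at least 3.

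Among marked genes, a peak covering a TSS, rather than within 1000 bp, left 37.9% in the rat, 57.8% in the rabbit and 16.7% in the second-round list. With −log10 q of at least 3 the median rabbit fold enrichment was 4.60. The count of genes in both w1118 rat lists, 6, ran from 6 to 29 when 1 of the lists was left out, 29 being the first-round list without the second-round library. RefSeq models (80 genes on chromosome 4) moved no share beyond its interval. No paired analysis was possible because no result comes from a test and each combination has 1 library. Read numbers are not in the lists, so what depth limits could not be measured, and the 80 genes set the width of the intervals.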

Other observations

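Some chromosome 4 peaks lay at no protein-coding gene by the rule used: 11 of 56 rat, 7 of 56 rabbit and 3 of 8 second-round w1118 peaks. The other 45, 49 and 5 lay at a gene, compared with 5054 of 6073, 3009 of 3392 and 876 of 1030 on the other arms. Of the chromosome 4 peaks at no gene, the strongest present in all 3 w1118 lists was upstream of ci, the gene of the Hedgehog pathway transcription factor cubitus interruptus. It had fold enrichments of 6.39 (rat, chr4:58910-59342), 5.54 (rabbit, chr4:58918-59227) and 5.73 (second-round rat, chr4:58884-59328), lay 1843 to 1877 bp before the ci TSS at 57041 and overlapped the antisense RNA gene asRNA:CR43957. At ci itself, a rat peak of 4.57 and a rabbit peak of 4.30 covered the internal TSS at 56331, and the second-round list had none there. The second-round peak upstream of ci was the strongest of its 8 on the chromosome.

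A further pair of peaks lay 10722 bp (rat, fold enrichment 6.78) and 10717 bp (rabbit, 5.58) upstream of the zinc-finger gene dati. Other places were found with the rat antibody in both rounds but not with the rabbit antibody: one upstream of fuss, with fold enrichments of 3.39 and 3.66, and one beyond the last gene, Cadps, with 3.48 and 4.04. Both rabbit peaks in the run of genes without a peak from Arl4 to NfI, with fold enrichments of 5.06 and 3.39, were mostly repeat-masked, at 74.6% and 78.9%.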
